A study of Mus musculus with 4 samples.

Results

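Genes of splicing factors and related RNA-binding proteins were examined in granulocyte-monocyte progenitors, which form neutrophils and monocytes in the bone marrow. The genes were chosen by name alone: every listed gene whose mouse symbol starts with Srsf, Hnrnp, Sf3a, Sf3b, Prpf, Rbm, Snrnp, Snrp, Luc7l or Tra2, or is 1 of the kinase genes Clk1 to Clk4. This gave 48 genes of 5059 genes with an NCBI gene number, and 95 of 8219 transcripts. Of the 48 genes, 47 code for proteins. The exception is Rbm3os, a non-coding RNA gene on the strand opposite Rbm3 that the naming rule also takes in. The transcripts described are those outside the reference annotation that was used when the files were made, called unannotated transcripts here. The annotated transcripts of these genes were not used here, and every level below covers the unannotated share of a gene alone.

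Poly(A) RNA was sequenced from MST1-deficient and wild-type mice, with 2 libraries in each group and cells pooled from 10 mice in each library. The cells were sorted from bone marrow, kept in serum-containing medium and given no drug. How MST1 was removed, the strain, age and sex of the mice, the sorting gates and any batch are not given in the sources used here. MST1 was taken to be the Hippo pathway kinase encoded by Stk4, of which no unannotated transcript was listed, so the labels alone define the groups.

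Splicing removes introns from a primary transcript. The U1 and U2 particles mark the ends of the intron, SR proteins and hnRNP proteins favour or oppose the use of nearby splice sites, and the particles of the core then carry out the cut. CLK kinases phosphorylate SR proteins and so alter their activity and location in the nucleus. Many of these genes regulate their own mRNA by keeping an intron or including an exon with a stop codon, and such forms are held in the nucleus or destroyed by nonsense-mediated decay. In human myeloid disease, SF3B1 and other splicing factor genes are recurrently mutated.

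The libraries held between 928977 and 1079382 estimated counts over all listed transcripts. Of 16 marker genes of granulocyte-monocyte progenitors, 4 had an unannotated transcript, with a summed level of 120 and 116 FPKM in the MST1-deficient libraries, against 121 and 94.4 FPKM in the wild-type ones. FPKM is the estimated count scaled to transcript length and library size. Mpo, Elane and Cd34 had no unannotated transcript, so the label could not be checked on them. Y-linked genes were looked at as a sign of the sex of the pooled mice. The sum over 4 of them was 23.4 and 14.8 FPKM in MST1-deficient libraries, against 3.60 and 0 FPKM in wild-type ones. Erythroid marker genes (4 of 10 listed) summed to 18.5 and 7.84 FPKM, against 23.6 and 30.7 FPKM, and eosinophil, basophil and mast cell genes (4 of 8) to 113 and 126 FPKM, against 151 and 190 FPKM. T and NK cell genes (3 of 7) summed to 14.1 and 11.97 FPKM, against 25.1 and 27.2 FPKM, but went opposite ways. Klrc1 had 3.98 and 4.34 FPKM in MST1-deficient libraries, against 19.7 and 22.3 FPKM in wild-type ones. Ncr1 had 9.86 and 7.63 FPKM, against 5.41 and 4.93 FPKM. Cd3g had 0.25 FPKM in MST1-deficient replicate 1 and was not listed elsewhere. B lineage genes (3 of 6) summed to 9.46 and 8.42 FPKM, against 22.3 and 1.72 FPKM. Mature neutrophil genes (2 of 7) summed to 34.75 and 31.25 FPKM in MST1-deficient libraries, against 53.7 and 27.3 FPKM in wild-type ones. Megakaryocyte genes (2 of 5) summed to 43.8 and 34.4 FPKM, against 36.8 and 45.2 FPKM. The groups do not overlap in the sums of the Y-linked, erythroid, eosinophil, and T and NK lists, and overlap in the other marker lists. Among the tested erythroid genes Sptb does not overlap, while Ank1 and Tal1 do. The differences in the lists without overlap run with genotype. With 2 libraries in each group, their part in the values below cannot be told apart from that of genotype and was not tested.

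Unannotated transcripts of splicing factor genes made up a small share of the listed signal in both genotypes, with means of 1.53 ± 0.032% for MST1-deficient cells and 1.35 ± 0.056% for wild-type cells (SD, n = 2 each) and no overlap. They summed to 1049 and 1076 FPKM in the MST1-deficient libraries (1.56% and 1.51% of all listed FPKM), against 1037 and 1003 FPKM in the wild-type libraries (1.39% and 1.31%). The summed levels do not overlap either, and the means of 1062 ± 19.1 and 1020 ± 24.2 FPKM (SD, n = 2 each) differ by about the sum of the SDs. The total of all listed FPKM, which divides the shares, was 67404 and 71205 in the MST1-deficient libraries. In the wild-type libraries it was 74763 and 76681, so a part of the difference in share lies in the totals. An exact permutation test of 2 libraries against 2 cannot go below p = 0.33, so sums like these were not tested. In pooled cells, fewer cells of a type and less RNA per cell cannot be told apart. All 4 libraries listed 42 of the 48 genes (87.5%), against 72.7% of the other genes. The median level of the splicing factor genes over the libraries was 6.84 FPKM, and that of the other genes was 1.87 FPKM. Neither difference was tested.

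Of the 48 genes, 39 passed the filter of at least 1 FPKM in at least 2 libraries, and so did 70 of the 95 transcripts. With edgeR on estimated counts, 0 of the 39 gene sums passed an adjusted p of 0.05, and over all 3221 genes tested the share that passed was also 0%. The log2 fold change was above 0 for 26 of the 39 genes, where the background was 51.1%. At an unadjusted p under 0.05 there was 1 of the 39, Rbm34, where the background was 5.65% of all genes tested, with 3.01% higher and 2.64% lower in MST1-deficient cells. Limma on log2(FPKM + 0.5) called 0 of the 39, against 0.186% of all genes tested. DESeq2 called 1, again Rbm34, against 1.43% of all genes tested, with 0.683% higher and 0.745% lower. The groups did not overlap on FPKM for 12 of the 39 genes, or 30.8%, where the background was 32.8%. Of the 39 genes, 9 (23.1%) were higher in MST1-deficient cells without overlap, where the background was 14% of all genes tested. Lower without overlap were 3 of the 39 (7.69%), where the background was 18.8%. The median log2 fold change of MST1-deficient over wild type was 0.11 for the 39 genes and 0.01 for all genes tested.

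**Figure D1:**
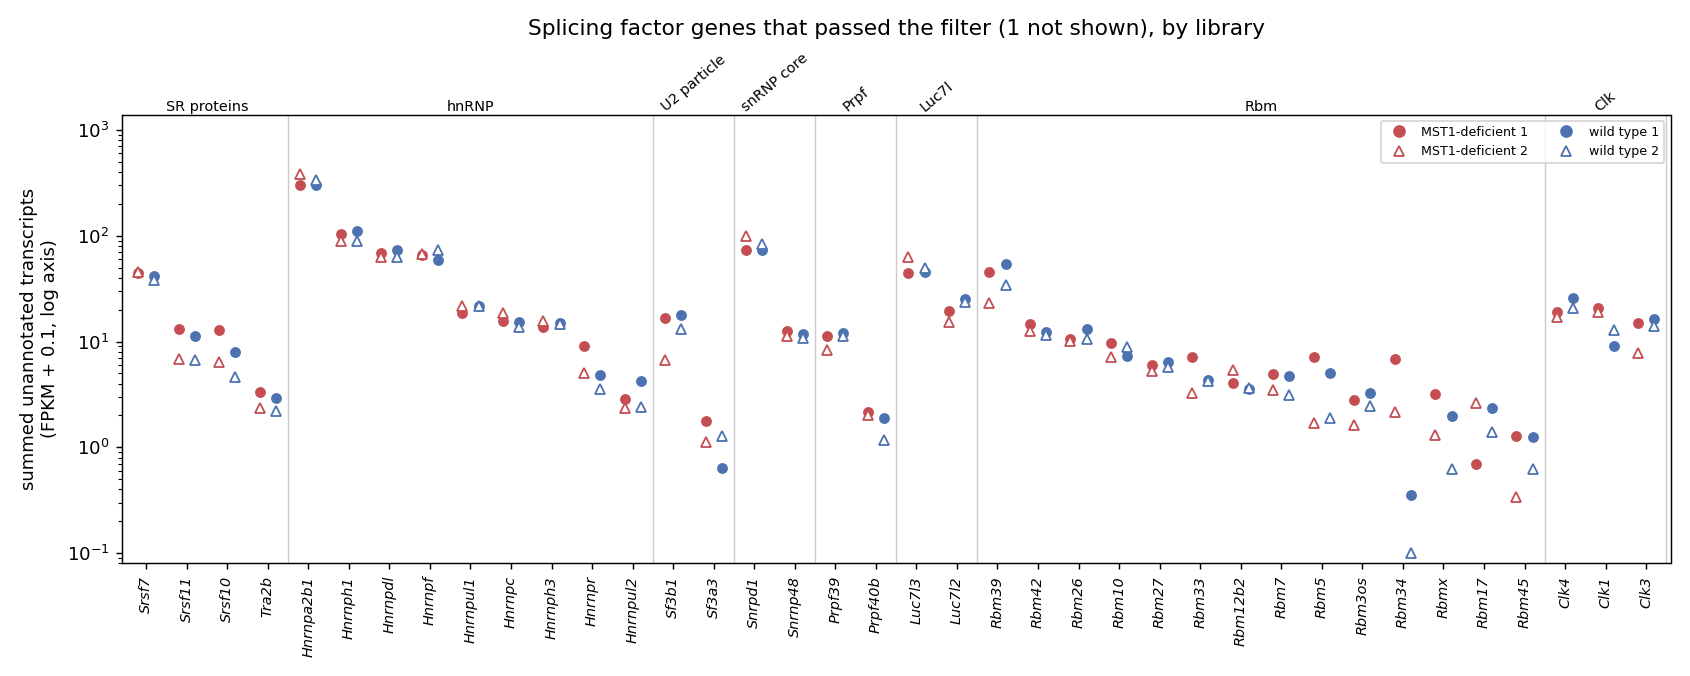
Summed unannotated transcripts of the splicing factor genes that passed the filter, with 1 gene not shown (FPKM + 0.1, log axis), 1 point per library, grouped by role. MST1-deficient libraries stand left of wild-type ones. The points of the 2 genotypes lie close together for most genes. Rbm34 has 6.76 and 2.06 FPKM against 0.25 and 0 FPKM.

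The libraries of a group often differed from each other by more than the genotypes did, among these genes as among all genes tested. On the log2(FPKM + 0.5) scale the gap between the group means was below the larger gap between libraries of a group in 33 of the 39 genes (84.6%), where the background was 78.5% of all genes tested. The median gap between genotypes was 0.21 and the median larger gap between libraries was 0.44. The gap was above it in 6 genes, among them Clk1, Clk4, Luc7l2, Rbm34 and Srsf7. The edgeR test called 0 of these 6.

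**Figure D2:**
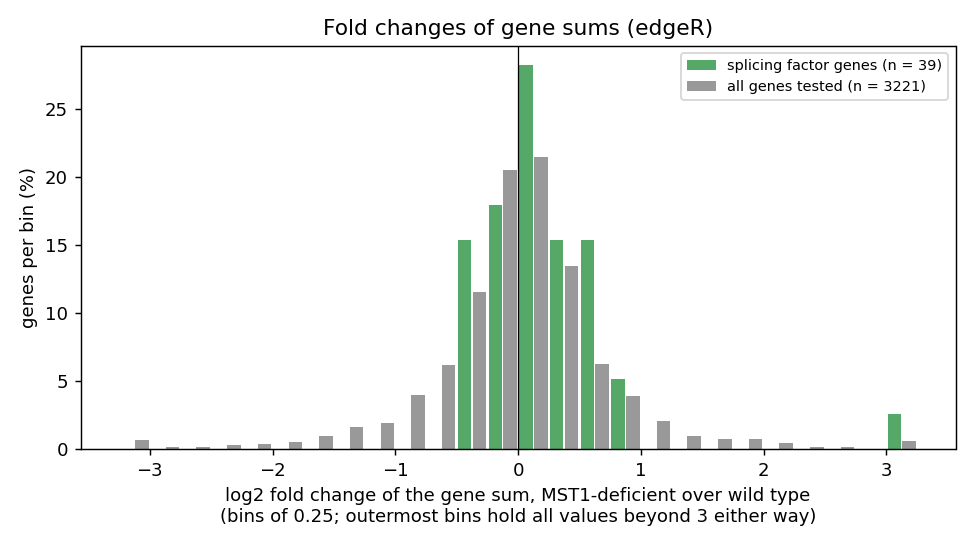
Distribution of edgeR log2 fold changes of gene sums, MST1-deficient over wild type, for the 39 splicing factor genes (green) and all 3221 genes tested (grey), as percent of genes per bin of 0.25. The splicing factor genes centre near 0 with a median of 0.11, and among them Rbm34 alone lies beyond 3.

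Among the SR proteins, which bind exons and recruit the splicing machinery, 4 genes were listed: Srsf7, Srsf10, Srsf11 and Tra2b. Srsf7 (chromosome 17, 80200080 to 80207369) had 44.7 and 45.2 FPKM in the MST1-deficient libraries, against 41.4 and 37.8 FPKM in the wild-type libraries. Both MST1-deficient values are above both wild-type ones, but the gene was not called (log2 fold change 0.26, SE 0.21, edgeR adjusted p = 0.992). Srsf10, a relative that can act as a repressor of splicing, had 12.9 and 6.28 FPKM in MST1-deficient libraries, against 7.94 and 4.55 FPKM in wild-type ones. Srsf11 had 12.9 and 6.69 FPKM, against 11.3 and 6.58 FPKM. For both genes, replicate 1 was above replicate 2 in each genotype, and the groups overlap. Tra2b, an activator that binds purine-rich exon sequences, had 3.23 and 2.27 FPKM in MST1-deficient libraries, against 2.81 and 2.09 FPKM in wild-type ones.

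The 5 unannotated transcripts of Srsf7 were between 2892 and 4539 bases long, while the longest coding transcript of the gene in GENCODE M21 has 2403 bases. The form of 4539 bases made up 43.8% and 32.9% of the FPKM in MST1-deficient libraries, against 41.1% and 39.0% in wild-type ones. It was the most abundant form in 3 libraries. In MST1-deficient replicate 2 the form of 4125 bases was higher, with 19.5 FPKM, against 7.68 FPKM in MST1-deficient replicate 1 and 8.80 and 10.6 FPKM in wild type. GENCODE lists 3 retained-intron and 1 nonsense-mediated decay transcripts for Srsf7. Which introns or exons the deposited forms hold is not known, since the files give lengths and no structures.

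The hnRNP genes held the largest part of the signal. Hnrnpa2b1 (chromosome 6, 51460434 to 51470048), whose proteins bind pre-mRNA and mature mRNA in the nucleus, alone made up 31.9% of the mean FPKM of the 48 genes. It had 305 and 384 FPKM in the MST1-deficient libraries, against 304 and 334 FPKM in the wild-type libraries. MST1-deficient replicate 2 was highest, and the other MST1-deficient library was within the wild-type range (log2 fold change 0.19, SE 0.28, edgeR adjusted p = 0.992). A form of 4085 bases made up 82.1% and 81.7% of the gene's FPKM in MST1-deficient libraries, against 83.1% and 81.2% in wild-type ones. The second form, of 2180 bases, took the rest. The longest GENCODE coding transcript of the gene has 1728 bases.

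Hnrnph1 and Hnrnpf encode closely related proteins that bind runs of G. Hnrnph1 had 104 and 89.3 FPKM in MST1-deficient libraries, against 111 and 88.9 FPKM in wild-type ones. Hnrnpf had 65.2 and 67.8 FPKM, against 58.4 and 72.9 FPKM, all in 1 transcript of 2213 bases. For both genes the MST1-deficient libraries lie within the range of the wild-type ones. In Hnrnph1 a form of 5344 bases made up 63.0% and 55.8% in MST1-deficient libraries, against 52.4% and 59.8% in wild-type ones.

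Hnrnpdl, which regulates its own mRNA by splicing in human cells, had 68.7 and 62.7 FPKM in MST1-deficient libraries, against 72.5 and 62.5 FPKM in wild-type ones. Its form of 2855 bases had 14.6 and 14.4 FPKM, against 20.02 and 17.3 FPKM, and the groups do not overlap (log2 fold change -0.29, SE 0.25, edgeR adjusted p = 0.999). The main form, of 3869 bases, had 42.8 and 35.9 FPKM, against 37.2 and 34.4 FPKM. Hnrnpr, a relative of the translation regulator Syncrip, had 8.90 and 4.98 FPKM in MST1-deficient libraries, against 4.72 and 3.49 FPKM in wild-type ones. The groups do not overlap (log2 fold change of the sum 0.75, SE 0.28, edgeR unadjusted p = 0.0513, adjusted p = 0.883). Its form of 8501 bases had 1.58 and 1.86 FPKM, against 0.98 and 0.30 FPKM.

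Hnrnph3 had similar sums in the 4 libraries, while its forms varied between them. The sum was 13.7 and 15.6 FPKM in MST1-deficient libraries, against 14.8 and 14.6 FPKM in wild-type ones. A form of 2029 bases made up 28.4% and 18.8% in MST1-deficient libraries, against 10.8% and 0% in wild-type ones. It had 3.89 and 2.94 FPKM, against 1.59 and 0 FPKM, so the groups do not overlap. The balance of the 4 forms had an unadjusted p of 0.0397 with diffSplice and an adjusted p of 0.468. The form with the highest mean, of 2123 bases, made up 19.6% and 39.96% in MST1-deficient libraries and 22.9% and 47.3% in wild-type ones, low in replicate 1 and high in replicate 2 of each genotype.

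The remaining hnRNP genes were Hnrnpc, whose protein binds U-rich RNA, Hnrnpul1, Hnrnpul2 and Hnrnpk. Hnrnpc had 15.4 and 18.3 FPKM in MST1-deficient libraries, against 15.1 and 13.6 FPKM in wild-type ones. Hnrnpul1 had 18.3 and 21.6 FPKM, against 21.4 and 21.3 FPKM, and Hnrnpul2 had 2.77 and 2.25 FPKM, against 4.13 and 2.30 FPKM. Only Hnrnpc of these 3 genes has no overlap between the groups. Hnrnpk, a C-rich RNA-binding protein gene, was listed only in MST1-deficient replicate 2, with 4 transcripts that together had 114 estimated counts, and at 0 in the other 3 libraries. A value in 1 library of a pair gives no check between libraries. Genes such as Hnrnpa2b1, Hnrnph1, Hnrnpf and Snrpd1 have related genes or processed copies in the genome, so the split of reads among them is uncertain.

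In the U2 particle, 2 subunit genes were listed. Sf3b1 (chromosome 1, 54985169 to 55027501), which encodes the large subunit that holds the branch point, had 16.7 and 6.59 FPKM in MST1-deficient libraries, against 17.6 and 12.97 FPKM in wild-type ones. The lowest value came from MST1-deficient replicate 2, and the other MST1-deficient library lies within the wild-type range (log2 fold change -0.39, SE 0.39, edgeR adjusted p = 0.992). Without MST1-deficient replicate 2 the log2 fold change of Sf3b1 was 0.04, and without MST1-deficient replicate 1 it was -0.99. The 1 unannotated transcript of Sf3b1 has 8013 bases, and the longest coding transcript of the gene in GENCODE has 6195 bases. Sf3a3 had 1.66 and 1.03 FPKM, against 0.54 and 1.17 FPKM.

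Among the genes of the small nuclear particles, Snrpd1, a protein of the Sm ring shared by the major particles, had 73.3 and 99.8 FPKM in MST1-deficient libraries, against 72.5 and 82.6 FPKM in wild-type ones. The groups overlap, and its 1 transcript of 837 bases is close to the longest GENCODE coding transcript, of 858 bases. Snrnp48, a protein of the minor spliceosome, had 12.5 and 11.2 FPKM, against 11.6 and 10.6 FPKM. Its form of 4989 bases had 7.92 and 5.98 FPKM in MST1-deficient libraries, against 4.85 and 5.61 FPKM in wild-type ones. Snrpb2, a U2 protein gene, was listed at no more than 0.16 FPKM in any library.

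The Luc7l genes encode proteins that act with the U1 particle at the 5′ splice site. Luc7l2 (chromosome 6, 38551334 to 38609953), whose human counterpart lies in a region often deleted in myeloid disease, had 19.3 and 15.3 FPKM in MST1-deficient libraries, against 25.4 and 23.6 FPKM in wild-type ones. Both MST1-deficient values are below both wild-type ones on FPKM. The test on estimated counts did not call the gene (log2 fold change -0.19, SE 0.21, edgeR adjusted p = 0.992).

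The forms of Luc7l2 varied more than its sum. A form of 7551 bases had 3.25 and 0 FPKM in MST1-deficient libraries, against 7.83 and 8.46 FPKM in wild-type ones (edgeR adjusted p = 0.999). A form of 5163 bases had 2.63 and 8.39 FPKM, against 9.54 and 14.2 FPKM. The form of 10077 bases had 12.2 and 6.41 FPKM in MST1-deficient libraries, against 7.10 and 0.24 FPKM in wild-type ones. Neither of the first 2 forms overlaps between the groups, while the third does, since wild-type replicate 1 is above MST1-deficient replicate 2. The balance of forms had an unadjusted p of 0.0438 and an adjusted p of 0.494 with diffSplice.

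Luc7l3 had 44.4 and 62.9 FPKM in MST1-deficient libraries, against 45.1 and 49.2 FPKM in wild-type ones. Luc7l was below the filter, with 4.04 and 0 estimated counts in MST1-deficient libraries, against 40.3 and 48.5 counts in wild-type ones. With no filter it had an unadjusted p of 0.0288 and an adjusted p of 0.972 (edgeR).

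The Prpf genes encode proteins of the splicing particles. Prpf39 had 11.1 and 8.23 FPKM in MST1-deficient libraries, against 12.03 and 11.1 FPKM in wild-type ones. Its forms of 4631 and 4300 bases shared the signal about equally, with 49.9% and 54.4% for the longer form in MST1-deficient libraries, against 47.4% and 49.5% in wild-type ones. Prpf40b had 2.05 and 1.90 FPKM, against 1.81 and 1.06 FPKM (log2 fold change 0.53, SE 0.50). Prpf8, which encodes the central protein of the catalytic core, stayed under 1 FPKM in every library. Prpf6 had 38.5 estimated counts in MST1-deficient replicate 1 and was listed at 0 in the other 3 libraries.

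The Rbm genes were the most numerous, with 18 listed and 14 above the filter. Rbm39, a cofactor of U2AF in splice site recognition, was the most abundant and had 45.3 and 23.0 FPKM in MST1-deficient libraries, against 53.5 and 34.4 FPKM in wild-type ones. In each genotype replicate 1 was higher, and the groups overlap. It was made up of a form of 2881 bases and a form of 2863 bases in nearly equal parts, with 53.5% and 51.0% for the longer form in MST1-deficient libraries, against 50.5% and 52.9% in wild-type ones.

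Rbm34 (chromosome 8, 126947172 to 126971127), a gene of an RNA-binding protein, had the largest fold change among the tested gene sums of the group. Its 1 transcript of 3371 bases had 6.76 and 2.06 FPKM in MST1-deficient libraries, against 0.25 and 0 FPKM in wild-type ones. In estimated counts these were 151 and 56.9, against 6.55 and 0. Both MST1-deficient libraries are above both wild-type ones, and they differ from each other more than 2-fold. The fitted log2 fold change was 4.97 (SE 1.31, 31.3-fold, edgeR unadjusted p = 0.0184, adjusted p = 0.688). The size of this fold rests on few wild-type reads. Rbm34 passed the filter of 1 FPKM in 2 libraries through the MST1-deficient libraries alone, which limits what a call can show. The log2 fold change of Rbm34 was 4.06 without wild-type replicate 2, 4.12 without MST1-deficient replicate 1 and 2.82 with limma. Without wild-type replicate 1 the wild-type group holds no read and no fold is given. DESeq2 gave an adjusted p of 0.0215 for the gene sum. For the 1 transcript, which holds the same counts, DESeq2 gave an adjusted p of 0.108 in the fit over transcripts. The other alternatives did not call Rbm34.

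Rbm26 and Rbm27 encode related RNA-binding zinc finger proteins. Rbm26 had 10.4 and 10.1 FPKM in MST1-deficient libraries, against 12.9 and 10.6 FPKM in wild-type ones, with no overlap. Its form of 7722 bases had 4.04 and 2.36 FPKM in MST1-deficient libraries, against 0.95 and 1.64 FPKM in wild-type ones (log2 fold change 1.30, SE 0.49, edgeR unadjusted p = 0.0586, adjusted p = 0.984). The main form of Rbm26, of 7710 bases, is shorter by 12 bases and had 5.65 and 6.11 FPKM, against 6.05 and 8.40 FPKM. Rbm27 had 5.84 and 5.21 FPKM, against 6.32 and 5.69 FPKM.

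Rbm33, which has a form of 9378 bases and a form of 9381 bases, showed an exchange between them in a single library. The shorter form had 2.53 and 3.15 FPKM in MST1-deficient libraries, against 4.25 and 4.16 FPKM in wild-type ones (log2 fold change -0.49, SE 0.34, edgeR adjusted p = 0.999). The longer form had 4.47 FPKM in MST1-deficient replicate 1 and was listed at 0 in the other 3 libraries.

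Rbm5, Rbm6 and Rbm10 encode related regulators of exon skipping. Rbm5 had 7.09 and 1.61 FPKM in MST1-deficient libraries, against 4.91 and 1.80 FPKM in wild-type ones, so replicate 1 was high in both genotypes. Rbm10 had 9.56 and 7.05 FPKM, against 7.13 and 8.80 FPKM. Rbm6 was below the filter, with 11.9 and 16.6 estimated counts in MST1-deficient libraries, against 4.28 and 1.97 counts in wild-type ones. A form of Rbm6 of 6042 bases was listed in the MST1-deficient libraries alone, with 11.9 and 4.92 counts.

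Among the other Rbm genes, Rbm12b2 had 3.98 and 5.31 FPKM in MST1-deficient libraries, against 3.49 and 3.52 FPKM in wild-type ones (log2 fold change 0.50, SE 0.40, edgeR adjusted p = 0.992). Rbm42 had 14.4 and 12.4 FPKM, against 12.3 and 11.3 FPKM. Rbm7, in human cells a subunit of a nuclear complex that brings RNA to the exosome, had 4.79 and 3.39 FPKM, against 4.65 and 3.05 FPKM. Rbmx, an X-linked hnRNP-like gene, had 3.08 and 1.20 FPKM, against 1.87 and 0.52 FPKM. Rbm47, a cofactor of C-to-U RNA editing, was below the filter and had 6.68 and 25.2 counts in MST1-deficient libraries, against 0 in each wild-type library. Against a floor of 3 counts per library the mean of the MST1-deficient libraries was at least 5.54-fold higher. The edgeR adjusted p of Rbm47 was 0.969 when no filter was used. Rbm43 was below 1 FPKM in every library, and its form of 3818 bases made up 72% and 35.3% in MST1-deficient libraries, against 14.3% and 20.6% in wild-type ones.

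The rest of the Rbm genes were at low levels, and the groups overlapped in 3 of these 4. Rbm17, a splicing factor, had 0.60 and 2.50 FPKM in MST1-deficient libraries, against 2.26 and 1.29 FPKM in wild-type ones. Rbm45 had 1.18 and 0.24 FPKM, against 1.14 and 0.52 FPKM. Rbm48, below the filter, had 0.71 and 0.64 FPKM in MST1-deficient libraries, against 1.59 and 0.84 FPKM in wild-type ones, with no overlap. The non-coding Rbm3os had 2.71 and 1.52 FPKM, against 3.17 and 2.34 FPKM. Whether reads were assigned by strand is not given in the sources used here, so Rbm3os and Rbm3 may share reads.

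The CLK kinase genes gave the contrast with the smallest transcript p-value of the group. Clk1 (chromosome 1, 58411988 to 58424088) had 20.6 and 19.1 FPKM in MST1-deficient libraries, against 9.01 and 12.8 FPKM in wild-type ones. The groups do not overlap, and the means were 19.8 ± 1.09 and 10.9 ± 2.66 FPKM (SD, n = 2 each). The sum was not called on estimated counts (log2 fold change 0.72, SE 0.30, edgeR unadjusted p = 0.0688, adjusted p = 0.912).

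Clk1 had 3 unannotated forms, of 4158, 2701 and 2217 bases, all longer than the longest coding transcript of the gene in GENCODE, of 1796 bases. The form of 2217 bases had 31.9 and 112 estimated counts in MST1-deficient libraries, and the wild-type libraries listed it at 0. Against a floor of 3 counts per library the mean of the MST1-deficient libraries was at least 24.8-fold higher. Its unadjusted p was 0.0101 and its adjusted p 0.464 with edgeR. DESeq2 called this form (adjusted p = 0.0069). The form passed the filter of 1 FPKM in 2 libraries through the MST1-deficient libraries alone, which limits what this call can show. Its adjusted p was between 0.326 and 0.946 under the other alternatives.

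The other forms of Clk1 were listed in all 4 libraries. The form of 2701 bases had 8.11 and 4.79 FPKM in MST1-deficient libraries, against 3.02 and 3.67 FPKM in wild-type ones (log2 fold change 0.96, SE 0.43, edgeR unadjusted p = 0.0924). The form of 4158 bases had 10.3 and 7.99 FPKM, against 5.99 and 9.10 FPKM, so the groups overlap. It made up 49.9% and 41.9% of the gene's FPKM in MST1-deficient libraries, against 66.5% and 71.3% in wild-type ones. GENCODE lists 7 retained-intron and 2 nonsense-mediated decay transcripts for Clk1.

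Clk1 also had the smallest p of the group for the balance among forms. Of 18 splicing factor genes with at least 2 tested transcripts, 0 passed the diffSplice threshold, against 1.21% of the 909 genes tested. At an unadjusted p under 0.05 there were 3 of the 18 (Clk1, Hnrnph3 and Luc7l2), where the background was 9.68%. Clk1 had an unadjusted p of 0.00533 and an adjusted p of 0.154. With a pseudocount of 0.1 the adjusted p of Clk1 was 0.0183, and with diffSpliceDGE of edgeR, which also called 0 of the 18, against 1.32% of the 909 genes, it was 0.0598. Over the alternatives its adjusted p ran up to 0.978, reached among transcripts above 0 in all 4 libraries, where the form of 2217 bases drops out.

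**Figure D3:**
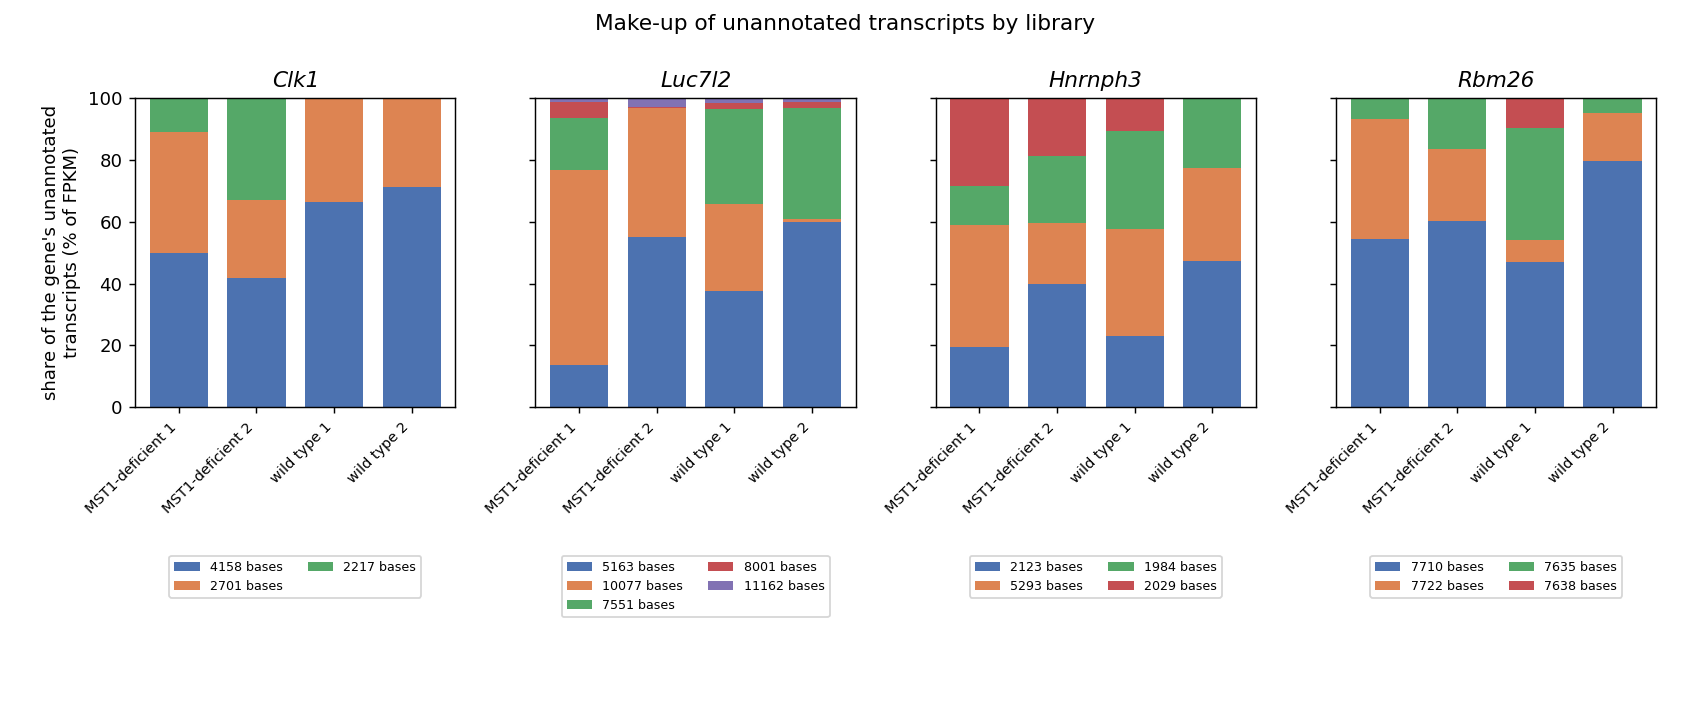
Share of each unannotated form in the FPKM of its gene (percent), by library, for Clk1, Hnrnph3, Luc7l2 and Rbm26, the genes of lowest p in the balance test. Colours rank the forms of a gene by mean FPKM and lengths are in bases. The form of 2217 bases of Clk1 appears in each MST1-deficient library and in neither of the wild-type ones, while the forms of Luc7l2, Hnrnph3 and Rbm26 also differ between libraries of the same genotype.

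Clk4 and Clk3 differed from Clk1 in direction. Clk4 had 19.0 and 17.1 FPKM in MST1-deficient libraries, against 25.8 and 20.8 FPKM in wild-type ones, with no overlap (log2 fold change -0.23, SE 0.20, edgeR adjusted p = 0.992). Its form of 1923 bases had 5.24 and 7.53 FPKM, against 12.4 and 9.12 FPKM (log2 fold change -0.65, SE 0.47). Clk3 had 14.8 and 7.68 FPKM in MST1-deficient libraries, against 16.1 and 13.9 FPKM in wild-type ones, and the groups overlap. Its form of 2770 bases had 5.58 and 2.70 FPKM, against 5.85 and 6.07 FPKM. Clk2 had no unannotated transcript. The difference between Clk1 and the other kinase genes was not tested.

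At the level of single transcripts, edgeR called 0 of the 70 tested, and over all 4661 transcripts tested the share was also 0%. At an unadjusted p under 0.05 there were 2 of the 70, both higher (the 2217-base form of Clk1 and the Rbm34 transcript), where the background was 5.26%, with 2.27% higher and 2.98% lower. DESeq2 called 1 of the 70, the form of Clk1, where the background was 2.15%, with 1.07% in each direction. Limma on log2(FPKM + 0.5) called 0 of the 70, against 0.129% of all transcripts tested. The groups did not overlap for 19 of the 70 transcripts, or 27.1%, where the background was 33.6%. Of the 70 transcripts, 12 (17.1%) were higher in MST1-deficient cells without overlap, where the background was 13.7% of all transcripts tested. Lower without overlap were 7 of the 70 (10%), where the background was 19.9%. The log2 fold change was above 0 for 41 of the 70, where the background was 49.4%. The median log2 fold change was 0.11 for the 70 transcripts and -0.01 for all transcripts tested.

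Several unannotated forms per gene were common. Of the 48 genes, 24 had at least 2 unannotated transcripts, against 33.8% of the other genes, and Srsf7 and Luc7l2 had 5. The most abundant form made up a median of 56.9% of the FPKM in these 24 genes, from 32.4% in Hnrnph3 to 97.8% in Prpf40b. The same form ranked first in all 4 libraries in 12 of the 24 genes, such as Hnrnpa2b1, Hnrnph1, Hnrnpdl, Hnrnpc, Hnrnpr, Clk1, Clk3, Rbm26 and Rbm39. In 11 genes the leading form varied, and in Hnrnpk it could not be compared because 3 libraries listed none. In 0 genes was 1 form highest in both MST1-deficient libraries and another in both wild-type ones. This count was 5 without MST1-deficient replicate 2, 2 without wild-type replicate 2, and 1 without either of the other libraries. A group with 1 library left meets its part of this rule in any case, so these counts cannot be set against the 0. Tra2b was an example of variation without regard to genotype. Its form of 1686 bases had 2.44 and 0.33 FPKM in MST1-deficient libraries, against 0 and 2.09 FPKM in wild-type ones, and its form of 1869 bases had 0.79 and 1.94 FPKM, against 1.70 and 0 FPKM.

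Most of these transcripts were longer than the annotated coding ones. Of 94 transcripts from genes with a coding transcript in GENCODE, 59 (62.8%) were longer than every such transcript of their gene, against 52.2% of the transcripts of other genes. None of the 95 had the same length as a GENCODE transcript of its gene, and 14 were within 50 bases of a GENCODE transcript. The excess over the longest coding transcript was largest among hnRNP and Luc7l forms. Hnrnpul1 had a form of 11468 bases against a longest coding transcript of 3784 bases, and Luc7l2 a form of 11162 bases against 4253 bases.

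**Figure D4:**
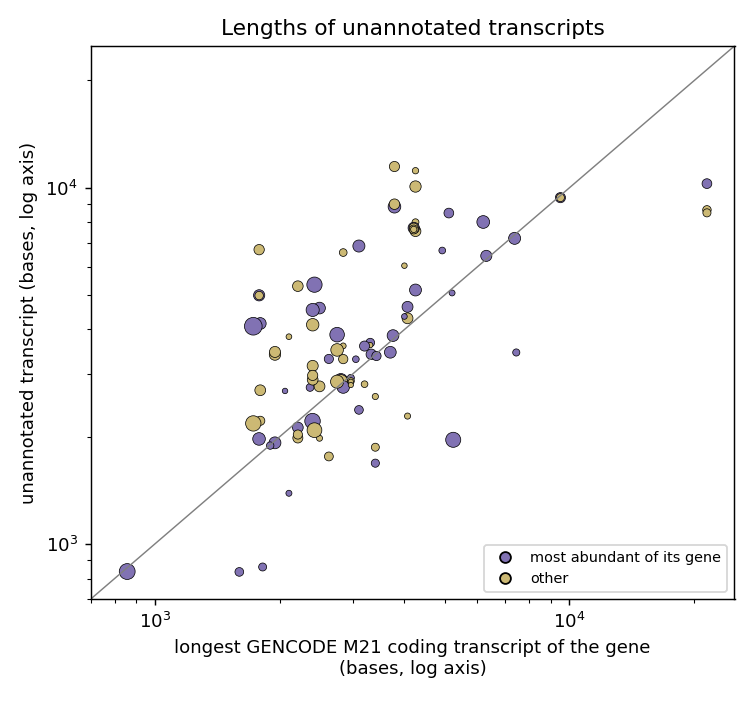
Length of each unannotated transcript of the splicing factor genes against the longest GENCODE M21 coding transcript of its gene (bases, log axes). Point area grows with mean FPKM and the line marks equal length. Of 94 transcripts, 59 lie above the line, among them both forms of Hnrnpa2b1 and all 3 forms of Clk1.

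Where 2 forms of a gene were close in length, the difference was often a multiple of 3 bases. Of 80 pairs of forms, 19 from 9 genes differed by at most 100 bases, and 15 of these 19 (78.9%) differed by a multiple of 3, against 45.2% of such pairs in the other genes. Pairs of a gene share forms, and Rbm26 gave 6 of the 19 and Hnrnpk 5. Of the remaining 8 pairs, 4 differed by a multiple of 3. The forms of Rbm39 differed by 18 bases, those of Rbm33 by 3 bases, a pair of Srsf7 forms by 81 bases and a pair of Hnrnph3 forms by 45 bases. The difference between the splicing factor genes and the others was not tested.

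Other genes of the splicing machinery also held none called by edgeR, but their genes without overlap split evenly by direction. Of 101 further spliceosome and regulator genes, 52 had an unannotated transcript and 41 passed the filter. With edgeR 0 of the 41 passed, and over all genes tested the share was also 0%. At an unadjusted p under 0.05 there was 1, Dyrk1a, where the background was 5.65% of all genes tested. The median log2 fold change was 0.10. The groups did not overlap for 10 of the 41, where the background was 32.8% of all genes tested. Of the 41 genes, 5 were higher in MST1-deficient cells without overlap (Dyrk1a, Ptbp1, Acin1, Dhx38 and Lsm7), where the background was 14% of all genes tested. Another 5 of the 41 were lower without overlap (Sfpq, Zrsr2, Mbnl2, Bclaf1 and Taf15), where the background was 18.8% of all genes tested. Dyrk1a, a kinase that can phosphorylate splicing factors, had 6.47 and 4.94 FPKM in MST1-deficient libraries, against 3.55 and 3.07 FPKM in wild-type ones (log2 fold change 0.83, SE 0.24, edgeR unadjusted p = 0.0229, adjusted p = 0.733). Ptbp1, a repressor that binds pyrimidine tracts, had 4.43 and 4.15 FPKM, against 3.11 and 2.22 FPKM (log2 fold change 0.75, SE 0.37). Among the lower ones, Sfpq, a paraspeckle protein gene, had 6.17 and 4.87 FPKM in MST1-deficient libraries, against 6.23 and 7.11 FPKM in wild-type ones (log2 fold change -0.23, SE 0.29). U2af1, U2af2 and Sf1, which recognise the 3′ splice site, had no unannotated transcript. Of 10 genes of nonsense-mediated decay, 7 were listed and 5 tested, and 0 passed. Upf3b, a factor that links the pathway to exon junctions, had 1.45 and 0.65 FPKM in MST1-deficient libraries, against 2.54 and 2.38 FPKM in wild-type ones (log2 fold change -1.19, SE 0.61, edgeR adjusted p = 0.943).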

How the data were processed

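The authors deposited, for each library, estimated counts (expected counts, not normalised and mostly not whole) and FPKM for unannotated transcripts, per the file headers. The genome build named in the submitters' processing notes is mm10. Aligner, assembler, estimator and annotation are not given in the sources used here. Transcripts that a library did not list were given the value 0. Files that hold only loci with no NCBI gene number were not used. Of 5059 gene numbers, 5051 matched a symbol in RefSeq GRCm38.p6, the build of mm10, which gave the coordinates. Lengths of annotated transcripts came from GENCODE M21.

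Counts were rounded and tested, per transcript and summed per gene, by the quasi-likelihood test of edgeR 4.0.16 (TMM factors, 2-sided) under R 4.3.3. Tested features had 1 FPKM or more in 2 or more libraries. Benjamini-Hochberg adjustment ran over the whole table, with a threshold of 0.05. Balance among forms was tested on log2(FPKM + 0.5) by diffSplice (limma 3.58.1, Simes p-values), which treats the transcripts of a gene as independent. Fold changes on that scale understate changes of low values. DESeq2 1.42.0, limma on log2(FPKM + 0.5) or log2(FPKM + 0.1), RLE factors, other filters, the replicate block and each library left out were alternatives. The tests were checked on simulated data. The labels do not say whether pools of a group were prepared separately, so p-values measure the spread between these libraries. No use of molecular identifiers is stated, so the floor of 3 counts covers counting error only.

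The genes, lists and tests were chosen with earlier results of these data known. Named were genes past a threshold, the 10 most abundant, up to 6 non-overlapping genes and transcripts in each direction by fold change or p, the 6 largest shifts in share, the 5 smallest balance p-values, the Clk genes and the most abundant gene of each role. Others are given as values and were chosen after they were seen. Values of 1 gene are not reported here.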

Additional observations from a re-analysis of the deposited data

How the results depend on the processing

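No splicing factor gene or transcript passed the edgeR threshold under RLE factors, other filters, or with any library left out, and limma on FPKM called 0 with either pseudocount. DESeq2 moved the count to 1 gene sum (Rbm34) and to 1 transcript (Clk1). The balance of forms gave 1 gene (Clk1) with a pseudocount of 0.1 and 0 under every other alternative. The replicate block left the counts at 0 for gene sums, transcripts and balance. The labels do not say that the numbers pair the libraries, and the differences between replicates 1 and 2 of the 2 genotypes correlated at 0.045 over 3221 genes. The number of genes whose leading form followed genotype was 1 (Rbm43) when forms were ranked by count, and between 1 and 5 with a library left out. A leading form follows genotype more easily where a group holds 1 library. In fits with a library left out, the lone library of its group is assumed to vary like the other group. Over all features, DESeq2 called 46 genes and 100 transcripts, limma called 6 genes and 6 transcripts with a pseudocount of 0.5 and 2 and 4 with 0.1, against 0 and 0 with edgeR, and the balance test called 25 genes with a pseudocount of 0.1, 12 with diffSpliceDGE, 3 among transcripts above 0 in all libraries 0 with the block and between 0 and 7 with a library left out, against 11.

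Many small log2 fold changes turned sign. Hnrnph3 (0.002) was -0.006 with RLE factors and DESeq2, -0.002 with limma, -0.019 with no filter, -0.016 with the count filter and -0.001 with the replicate block. Hnrnpdl (-0.037) and Hnrnph1 (-0.043) were below 0 with limma at either pseudocount and above 0 with edgeR on all 4 libraries. With a library left out, 19 of the 39 fold changes turned sign, none above 0.385 in size with all 4 libraries, and the widest were -0.792 to 1.141 for Rbm5, -1.615 to 0.671 for Rbm17 and -1.393 to 0.373 for Rbm45. Among genes named by rule they ran from -0.186 to 0.444 for Tra2b, -0.19 to 0.59 for Snrpd1, -0.206 to 0.633 for Rbm33, -0.096 to 0.093 for Hnrnph3, -0.039 to 0.132 for Hnrnpdl, -0.17 to 0.478 for Hnrnpa2b1, -0.189 to 0.633 for Luc7l3, -0.264 to 0.009 for Rbm26, -0.988 to 0.039 for Sf3b1 and -0.144 to 0.346 for Hnrnpf. The cause was not tested. None of these genes was called under any alternative. Rbm6, Rbm43, Rbm47, Snrpb2 and Prpf8, and the tested genes Sf3a3, Rbm17, Rbm45 and Rbm3os, had at most 25.2 counts in any library. This limits the precision of their values.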
